A study of Mus musculus with 18 samples.

Results

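The interferon regulatory factors are a family of transcription factors that switch on interferon genes and the genes that interferons induce. The members examined were the 8 genes Irf1, Irf2, Irf3, Irf4, Irf5, Irf7, Irf8 and Irf9, found by name among the 55385 genes of the deposited count and RPKM tables. All 8 were present and all 8 were among the 17575 genes that passed the filter on low counts.

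Kidneys of 18 mice were measured by polyA RNA sequencing, with 6 animals in each of 3 genotypes. Dp16 mice carry a duplication of the part of chromosome 16 that matches much of human chromosome 21, and they are used as a model of trisomy 21. Dp16 2xIFNRs mice are labelled as normalized for interferon receptor dosage: they carry that duplication too, with the receptor genes inside it back at the usual copy number. Wild-type mice were C57BL/6J, and every genotype had 3 males and 3 females, at 17.1 to 18.0 weeks of age and with no treatment. The labels give no strain background for the Dp16 lines, and do not say whether the wild-type animals were littermates of the others.

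Each member carries a DNA-binding domain that recognises repeats of GAAA, the core of the interferon-stimulated response element. Irf3 is made constitutively and is activated by the kinases TBK1 and IKK-epsilon after viral nucleic acid is sensed, while Irf7 is itself induced by type I interferon and amplifies the response. Irf9 is the DNA-binding part of ISGF3, the complex that acts below the type I and type III interferon receptors. Irf1 is induced by interferon gamma, Irf2 competes with it for DNA, Irf5 acts below Toll-like receptors in myeloid cells, and Irf4 and Irf8 work with the factor PU.1 in lymphoid and myeloid cells.

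None of the members lies on the duplicated segment, taken as Lipi to Zbtb21 on chromosome 16, from 75540514 to 97962622 in GRCm38 (GENCODE M21). Irf7 lies on chromosome 7 at 141262706 to 141266481 on the minus strand, and Irf3 on the same chromosome at 44997648 to 45002848 on the plus strand. Irf8 and Irf2 share chromosome 8, at 120736358 to 120756694 and at 46739732 to 46847458. Irf1 is on chromosome 11 at 53770014 to 53778374, Irf9 on chromosome 14 at 55603571 to 55610030, Irf5 on chromosome 6 at 29526625 to 29541871 and Irf4 on chromosome 13 at 30749226 to 30766976, and these 4 lie on the plus strand with Irf2 and Irf8. Some exons overlap those of a neighbour on the opposite strand, and the strand setting used in counting is not given in the sources used here. The overlap covered 14.1% of the exon bases of Irf5 (with Tnpo3), 3.4% of Irf1 (Gm17334), 2.56% of Irf3 (Bcl2l12) and 1.19% of Irf7 (Phrf1). Irf9 shared 2.28% of its exon bases with Rnf31 on the same strand.

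RefSeq promoter windows of GRCm38.p6, from 250 bases before to 50 bases after the start of transcription, were found for all 8 members, 11 windows in all. They were searched on both strands for 5 motifs. The promoter of Irf7, the one member that differed between genotypes, is shown with those of Irf1, Irf2 and Irf8, which held a response element core or a GAS element. The windows are chr7:141266375-141266674 on the minus strand for Irf7, chr11:53769764-53770063 for Irf1, chr8:46739495-46739794 for Irf2 and chr8:120736108-120736407 for Irf8, the last 3 on the plus strand. Capitals mark a response element core (GAAANNGAAA), a STAT-binding GAS element (TTCNNNGAA) or a TATA box (TATAAA).
Irf7: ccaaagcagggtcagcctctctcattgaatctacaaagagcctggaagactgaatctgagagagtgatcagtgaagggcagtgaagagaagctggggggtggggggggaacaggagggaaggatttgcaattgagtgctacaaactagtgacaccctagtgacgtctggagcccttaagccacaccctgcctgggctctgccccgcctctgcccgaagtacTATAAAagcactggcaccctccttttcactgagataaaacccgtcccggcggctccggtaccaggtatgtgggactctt
Irf1: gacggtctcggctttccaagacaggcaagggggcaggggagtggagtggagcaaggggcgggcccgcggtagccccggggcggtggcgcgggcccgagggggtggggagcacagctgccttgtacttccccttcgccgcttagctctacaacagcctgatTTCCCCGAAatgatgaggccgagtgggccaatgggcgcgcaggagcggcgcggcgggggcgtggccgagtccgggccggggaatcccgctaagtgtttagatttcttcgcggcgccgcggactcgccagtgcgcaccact
Irf2: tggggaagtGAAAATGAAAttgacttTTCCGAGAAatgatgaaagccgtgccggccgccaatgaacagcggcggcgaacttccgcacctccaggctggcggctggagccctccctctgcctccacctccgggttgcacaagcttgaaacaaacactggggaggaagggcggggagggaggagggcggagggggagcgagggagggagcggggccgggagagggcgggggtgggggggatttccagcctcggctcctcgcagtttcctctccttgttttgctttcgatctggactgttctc
Irf8: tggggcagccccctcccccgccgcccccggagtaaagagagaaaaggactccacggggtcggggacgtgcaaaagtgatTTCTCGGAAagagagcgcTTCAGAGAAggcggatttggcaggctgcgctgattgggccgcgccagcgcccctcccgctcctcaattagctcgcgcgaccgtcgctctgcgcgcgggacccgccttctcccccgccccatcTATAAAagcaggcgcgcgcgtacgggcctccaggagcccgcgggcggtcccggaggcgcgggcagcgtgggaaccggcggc

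The response element core was found in 1 of the 11 windows, that of Irf2, at bases -241 to -232 from the start, and in 3.44% of all 32851 RefSeq promoters. The GAS element was found in Irf1 at -90 to -82, in Irf2 at -224 to -216 and in Irf8 at -171 to -163 and at -153 to -145, against 8.3% of all promoters. A GAS-like element with a spacer of 4 bases (TTCNNNNGAA), held by 6.95% of all promoters, lay at 2 to 11 in Irf9. The TATA box was found in Irf7 at -29 to -24, in Irf4 at -26 to -21 and in Irf8 at -31 to -26, against 13.6% of all promoters. An ETS core (GGAAGT) lay in windows of Irf1, Irf2, Irf3 and Irf5, against 23.8% of all promoters, and is not capitalised in the sequences. In Irf2 an ETS match at -247 to -242 ended just before the response element core, and no match overlapped another. A match of letters is a description and does not show that a factor binds there.

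Library totals were 42157790 to 57814587 gene counts, mitochondrial genes took 6.34% to 10.88% of them, and no pair of libraries within a genotype agreed within sampling noise. The receptor genes were read first, as a check of the labels. In Dp16 against wild-type kidneys, Ifnar1, Ifnar2, Ifngr2 and Il10rb had log2 folds of 0.58, 0.80, 0.76 and 0.60, all called. In Dp16 2xIFNRs against wild-type kidneys the same genes had 0.16, 0.20, 0.13 and -0.01, of which Ifnar2 was called (edgeR adjusted p = 0.0368). In Dp16 2xIFNRs against Dp16 kidneys they had -0.42, -0.60, -0.63 and -0.62, all called except Ifnar1 (edgeR adjusted p = 0.113). Whole kidney was sequenced, so fewer cells of a type and less RNA per cell cannot be told apart in any result.

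Levels were compared between members in the deposited RPKM, counts scaled to the gene's length and the library's total. The order of members depends on those lengths, which differ unevenly from the exon bases of GENCODE M21. They were 2497 against 7396 bases for Irf2, 3435 against 7055 for Irf8 and 2647 against 2905 for Irf5. Irf3 was the highest member in RPKM, with 19.06 ± 1.17 RPKM (mean ± SD, n = 18) and 30.9% of the summed RPKM of the 8 genes. Irf2 followed with 11.7 ± 1.37 RPKM, and Irf3 was above it in 18 of 18 libraries with no overlap of their ranges. Irf7 averaged 7.44 ± 1.85, Irf5 6.59 ± 0.998, Irf8 5.88 ± 1.29, Irf9 5.48 ± 0.958 and Irf1 5.27 ± 0.828 RPKM. The order among these 5 was not the same in every library, since each exceeded the next in only 12 to 14 of 18 and their ranges overlapped. Irf4, a factor of lymphocytes and plasma cells, was far below the rest at 0.301 ± 0.104 RPKM, from 35 to 124 counts per library, and below Irf1 in 18 of 18.

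The members also differed in how much they varied between animals. The coefficient of variation of RPKM over the 18 libraries was 6.14% for Irf3 and 11.7% for Irf2, the pair highest in RPKM. It was 15.1% to 24.8% for Irf5, Irf1, Irf9, Irf8 and Irf7, and 34.5% for Irf4, which had the fewest counts. The plot of RPKM by library shows this spread with the sexes marked.

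**Figure D1:**
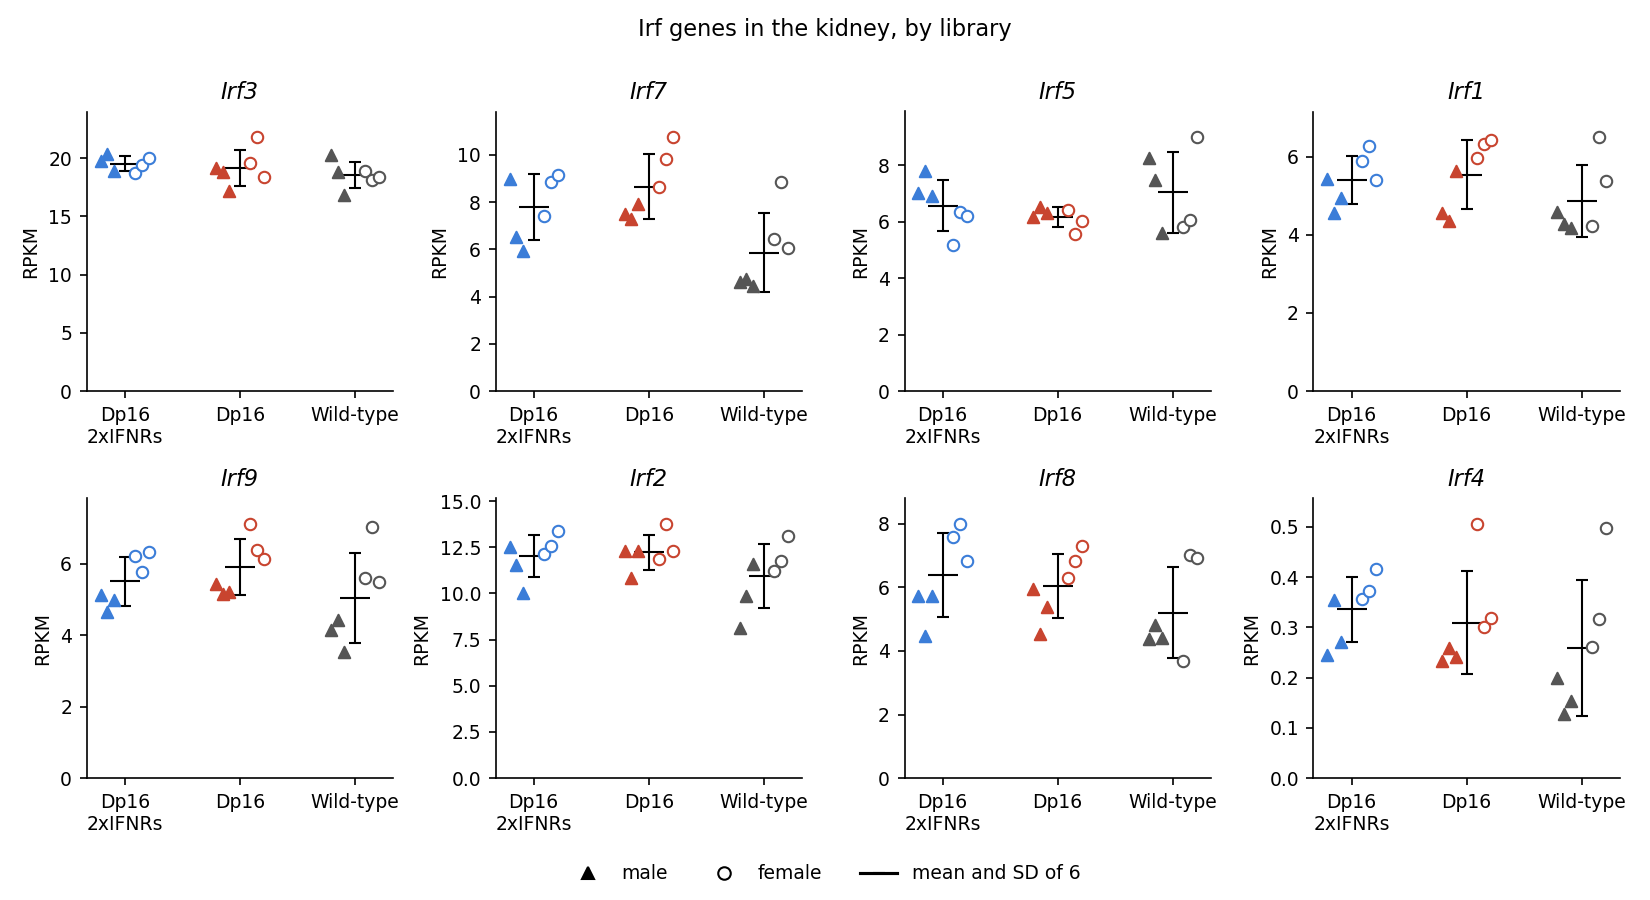
RPKM of each Irf gene (y axis, linear, from 0) in the 18 kidney libraries, by genotype; triangles are males, circles females, and bars show the mean and SD of 6. Irf7 runs from 7.29 to 10.8 RPKM in Dp16 and from 4.44 to 8.84 RPKM in wild-type kidneys, while Irf3 keeps between 16.8 and 21.8 RPKM in all 3 genotypes.

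The first question was whether the duplication changes expression of the family. Irf7, the interferon-induced amplifier, rose in Dp16 kidneys, and no other member passed the test. Irf7 had 7.29 RPKM at the lowest, 8.28 at the median and 10.8 at the highest in Dp16 kidneys, against 4.44, 5.41 and 8.84 RPKM in wild-type kidneys. Only wild-type replicate 5, a female with 8.84 RPKM, reached into the Dp16 range; the other 5 wild-type kidneys had 4.44 to 6.44 RPKM, below every Dp16 kidney. The log2 fold of Irf7 was 0.55 ± 0.11 (SE, n = 6 per group, 1.46-fold, edgeR quasi-likelihood test with Benjamini-Hochberg adjustment over all tested genes, adjusted p = 0.00577), with a 95% interval of 0.32 to 0.77.

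In Dp16 against wild-type kidneys 1 of 8 members was called, where 4.23% of all tested genes were called, 3.17% higher and 1.06% lower. At an unadjusted p under 0.05 it was 2 of 8, against 17.1% of all tested genes. The median log2 fold of the members was 0.17, against -0.01 over all tested genes, and 7 of 8 members had a fold above 0. Irf9, the DNA-binding part of ISGF3, came nearest to a call after Irf7. It had 5.14, 5.78 and 7.11 RPKM (lowest, median, highest) in Dp16 kidneys, against 3.52, 4.96 and 7.03 RPKM in wild-type kidneys, so the groups overlapped. Its log2 fold was 0.22 ± 0.08 (interval 0.05 to 0.38, edgeR adjusted p = 0.137).

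The constitutive sensor-activated factor Irf3 had 17.2, 18.95 and 21.8 RPKM in Dp16 kidneys, against 16.8, 18.6 and 20.3 RPKM in wild-type kidneys. Its log2 fold was 0.01, with an interval of -0.11 to 0.14. Irf5, the myeloid factor below Toll-like receptors, was the only member with a fold below 0, at -0.22 (interval -0.45 to 0.01, edgeR adjusted p = 0.31). It had 5.58, 6.23 and 6.51 RPKM in Dp16 kidneys, against 5.585, 6.77 and 8.997 RPKM in wild-type kidneys. The Dp16 kidneys sat close together at the lower end of the wider wild-type range. Tnpo3, the nuclear import gene whose exons overlap Irf5, had -0.12 ± 0.06 in the same edgeR test (adjusted p = 0.353).

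The interferon gamma-induced factor Irf1 and its competitor Irf2 had log2 folds of 0.15 (interval -0.03 to 0.34) and 0.13 (interval -0.04 to 0.30). Irf8, needed for monocytes and dendritic cells, had 0.18 (interval -0.06 to 0.43). Irf4 had 0.29 (interval -0.15 to 0.72), the widest interval of the family. None of these 4 passed the test, with adjusted p from 0.406 to 0.553, and these intervals do not exclude a change of the size seen for Irf9.

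The second question was whether the family differs from wild-type when the receptors are back at normal dosage. Irf7 rose here as well, by less in the fitted value. It had 5.92, 8.13 and 9.16 RPKM (lowest, median, highest) in Dp16 2xIFNRs kidneys, against the 4.44, 5.41 and 8.84 RPKM of the same wild-type kidneys. The groups overlapped: wild-type replicates 2, 5 and 6, all females, lay above the lowest Dp16 2xIFNRs kidney, a male, and replicate 5 lay above 3 of the 6. The log2 fold of Irf7 was 0.40 ± 0.11 (n = 6 per group, 1.32-fold, interval 0.18 to 0.63, edgeR adjusted p = 0.0372).

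In Dp16 2xIFNRs against wild-type kidneys 1 of 8 members was called, where 4.79% of all tested genes were called, 3.17% higher and 1.61% lower. At an unadjusted p under 0.05 it was 2 of 8, against 18.2% of all tested genes. The median fold of the members was 0.12 on the log2 scale, against 0.01 over all tested genes. Irf8 had 4.48, 6.28 and 7.99 RPKM in Dp16 2xIFNRs kidneys, against 3.67, 4.62 and 7.03 RPKM in wild-type kidneys. The groups overlapped, and its log2 fold of 0.25 ± 0.12 was not called (interval 0.00 to 0.50, edgeR adjusted p = 0.267). Irf4 had 0.245, 0.355 and 0.417 RPKM, against 0.127, 0.23 and 0.497 RPKM in wild-type kidneys, with a log2 fold of 0.42 (interval -0.02 to 0.86, edgeR adjusted p = 0.3). Irf1, Irf2, Irf3 and Irf9 had log2 folds of 0.12, 0.10, 0.04 and 0.11 and Irf5 -0.14, none called.

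Both comparisons use the same 6 wild-type libraries, so their folds are not independent. Wild-type replicate 5 was the highest wild-type library for Irf1, Irf7, Irf8 and Irf9. Without it the log2 fold of Irf7 was 0.65 in Dp16 (edgeR adjusted p = 0.000488) and 0.51 in Dp16 2xIFNRs (adjusted p = 0.00345), and Irf9 was called in Dp16 (0.29, adjusted p = 0.0204). In fits without sex as a term the Irf7 call was lost in both comparisons (adjusted p = 0.0672 in Dp16 and 0.236 in Dp16 2xIFNRs). In Dp16 2xIFNRs it was also lost with age as a term (adjusted p = 0.0559), in a fit of the 2 groups alone (0.0803), and without any 1 of 10 libraries. These were Dp16 replicate 5, Dp16 2xIFNRs replicates 1, 3, 4 and 5, and wild-type replicates 1, 2, 3, 4 and 6 (adjusted p from 0.0524 to 0.0995).

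The third question was whether bringing the receptors back to normal dosage changes the family within the duplication. No member was called in Dp16 2xIFNRs against Dp16 kidneys (0 of 8), where 0.0171% of all tested genes were called. At an unadjusted p under 0.05 edgeR also gave 0 of 8 members, against 4.71% of all tested genes, and DESeq2 called 0 members. Irf7 had 5.92, 8.13 and 9.16 RPKM in Dp16 2xIFNRs kidneys, against 7.29, 8.28 and 10.8 RPKM in Dp16 kidneys, and the ranges overlapped. Its log2 fold was -0.15 ± 0.11, with an interval of -0.37 to 0.08. Irf9 had -0.11 (interval -0.27 to 0.06), Irf4 0.13 (interval -0.30 to 0.57), and the other 5 members lay between -0.03 and 0.08. For Irf7 the interval therefore spans both a small rise and a fall by 0.37 on the log2 scale.

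**Figure D2:**
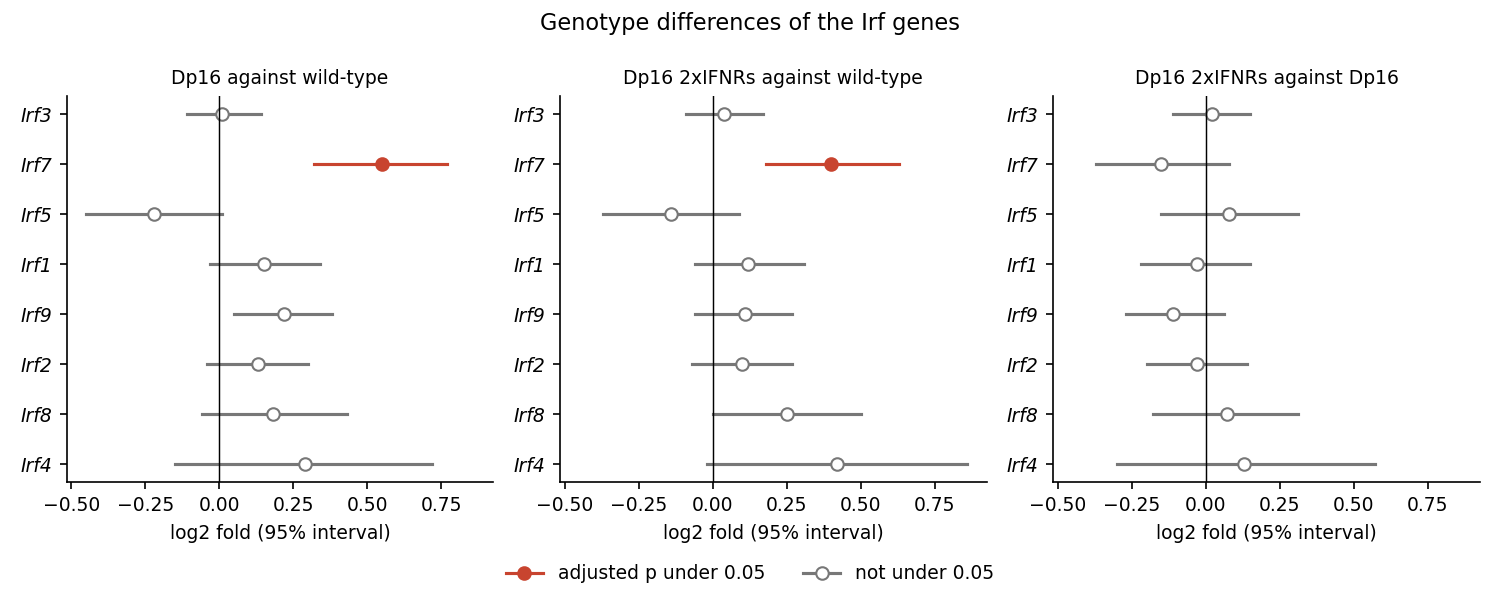
Log2 fold of each Irf gene (x axis) with its 95% interval in Dp16 against wild-type, Dp16 2xIFNRs against wild-type and Dp16 2xIFNRs against Dp16 kidneys; filled points passed an adjusted p of 0.05. Irf7 is the filled point in both comparisons with wild-type (0.55 and 0.40), and no point is filled in the third panel.

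Sex divided the family more than genotype did in the number of calls, though it did so for all genes. In male against female kidneys 5 of 8 members were called, 4 lower and 1 higher in males, where 38.8% of all tested genes were called, 19% higher and 19.7% lower. Irf9 was lower in males in every genotype. Its CPM, the count scaled to library size by TMM, was 15.4 to 16 in male and 17.2 to 18.4 in female Dp16 2xIFNRs kidneys, 16.6 to 17.2 in male and 17.8 to 21.4 in female Dp16 kidneys, and 11.7 to 14.6 in male and 16.4 to 21.1 in female wild-type kidneys. The sexes did not overlap within any genotype, and the log2 fold was -0.28 ± 0.06 (n = 9 per sex, edgeR adjusted p = 0.00167).

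Irf7 fell in males by 0.29 on the log2 scale (SE 0.09, edgeR adjusted p = 0.0128). Its CPM was 11.4, 16.7 and 21.7 (lowest, median, highest) in males, against 14, 20.4 and 24.1 in females. The 3 males lay below the 3 females in Dp16 kidneys (18.3 to 19.5 against 20 to 24.1) and in wild-type kidneys (11.4 to 12.1 against 14 to 20.5), while the sexes overlapped in Dp16 2xIFNRs kidneys (14.4 to 21.7 against 17 to 20.4). Irf8 was lower by the same amount (log2 fold -0.29 ± 0.10, adjusted p = 0.022), and its lowest library was nevertheless a female, wild-type replicate 2. Irf4 had the largest difference of the family, -0.60 ± 0.17 (adjusted p = 0.00889), with 0.644, 1.18 and 1.8 CPM in males, against 1.21, 1.63 and 2.33 CPM in females.

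Irf5 was the member that was higher in males, by 0.26 ± 0.09 (edgeR adjusted p = 0.0273), with 15.9, 18.6 and 23.1 CPM in males, against 13.1, 15.3 and 23 CPM in females. A single female, wild-type replicate 6, reached 23 CPM. Irf1 had a log2 fold of -0.18 (interval -0.33 to -0.03, adjusted p = 0.0541), Irf2 -0.06 (interval -0.20 to 0.08) and Irf3 0.09 (interval -0.01 to 0.20). On the deposited RPKM, scaled to total counts, the median of all genes moved to -0.13, against -0.03 under TMM, and 24.7% of all calls were higher in males, against 49.1%. On that scale Irf5 lost its call (adjusted p = 0.225), Irf1 and Irf2 were called lower in males (0.00368 and 0.0293), and the uncalled fold of Irf3 was -0.03. Irf5 also lost its call without any 1 of Dp16 2xIFNRs replicates 2 and 3 and wild-type replicates 1, 2 and 5 (adjusted p from 0.053 to 0.0592), and Irf8 without wild-type replicate 5 (0.0522). Irf1 was called with age as a term (0.0284), under a stricter filter (0.0355), and without any 1 of Dp16 2xIFNRs replicates 1 and 5, Dp16 replicate 6 and wild-type replicate 2 (adjusted p from 0.0102 to 0.0452). Irf3 was called, higher in males, without Dp16 replicate 3 (0.0418).

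**Figure D3:**
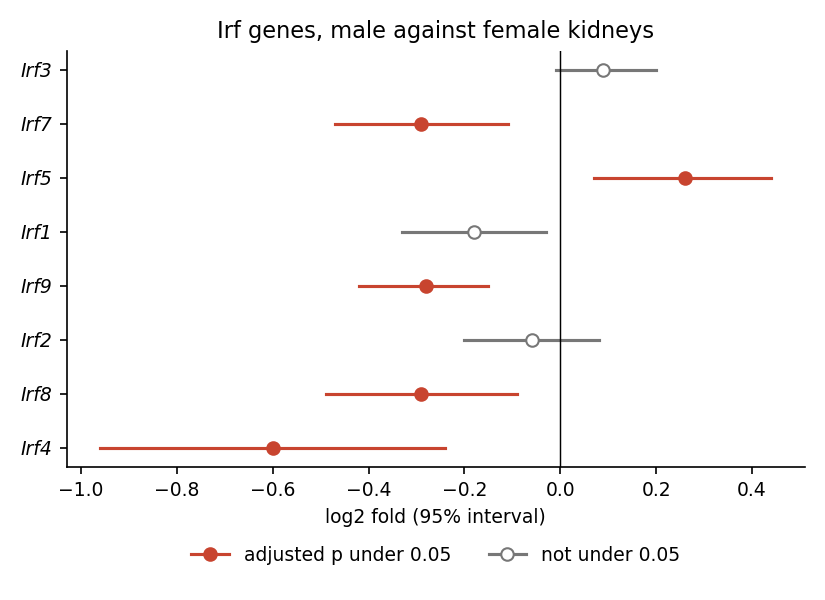
Log2 fold of each Irf gene in male against female kidneys (x axis, 9 libraries per sex, genotype as a term) with its 95% interval; filled points passed an adjusted p of 0.05. Irf4, Irf7, Irf8 and Irf9 lie below 0 and Irf5 above it.

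The genotype folds of the members were also set apart by sex. In males Irf7 had 5.92 to 8.98 RPKM in Dp16 2xIFNRs, 7.29 to 7.92 in Dp16 and 4.44 to 4.75 in wild-type kidneys, so neither group with the duplication overlapped wild-type. In females it had 7.40 to 9.16 RPKM in Dp16 2xIFNRs, 8.64 to 10.8 in Dp16 and 6.08 to 8.84 in wild-type kidneys, with overlap. The log2 fold in Dp16 was 0.68 ± 0.149 in males (edgeR adjusted p = 0.0253) and 0.43 ± 0.147 in females (adjusted p = 0.209). In Dp16 2xIFNRs it was 0.59 ± 0.149 in males (adjusted p = 0.0487) and 0.22 ± 0.147 in females (adjusted p = 0.722).

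The difference between the sexes was tested as an interaction of sex and genotype. It was called for 0 of 8 members in Dp16 and 0 of 8 in Dp16 2xIFNRs by edgeR and by DESeq2, where edgeR called 0.0171% and 0.00569% of all tested genes, and 0 of 8 members had an unadjusted edgeR p under 0.05 in either, against 7.85% and 3.53% of all tested genes. For Irf7 the fold in males exceeded that in females by 0.25 ± 0.21 (adjusted p = 0.731) in Dp16 and by 0.37 ± 0.21 (adjusted p = 1) in Dp16 2xIFNRs. Their unadjusted p values were 0.253 and 0.0979 by edgeR, with 3 animals of a sex per genotype.

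The genes upstream of the family were taken as 27 sensors, adaptors and kinases that activate it. Of these, 4 rose and 0 fell in Dp16 against wild-type kidneys, with a median log2 fold of 0.07. Over all tested genes 3.17% were called higher and 1.06% lower. Unc93b1, the chaperone that carries nucleic acid-sensing Toll-like receptors to endosomes, rose by 0.50 ± 0.08 (edgeR adjusted p = 0.00117), and Tmem173, which encodes the adaptor STING, by 0.61 ± 0.13 (0.00875). Ikbke, which encodes IKK-epsilon, a kinase of Irf3 and Irf7, rose by 0.57 ± 0.14 (0.0197), and the fourth was Dhx58, a RIG-I-like receptor. In Dp16 2xIFNRs against wild-type kidneys 3.17% of all tested genes were called higher and 1.61% lower. Of the 27, 6 rose and 1 fell there, with a median of 0.15. Unc93b1, Tmem173 and Ikbke were among them, at 0.45 ± 0.08, 0.60 ± 0.13 and 0.59 ± 0.14, with Tlr3, Tlr4 and Tlr9, and the kinase gene Chuk was lower. That count of 7 fell to 3 or 4 without any 1 of Dp16 2xIFNRs replicates 1, 2, 5 and 6, Dp16 replicate 2 and wild-type replicates 1, 3, 4 and 6.

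The interferon genes themselves gave almost no reads. Of 20 type I, II and III interferon genes in the tables, 17 had 0 counts in all 18 libraries, and none passed the filter on low counts. Ifng had 54 counts over all libraries, and Ifnk and Ifnl3 had 2 each. Among 7 tested genes of interferon receptors, JAK kinases and STATs that lie off the duplicated segment, 0 rose and 0 fell in either comparison with wild-type by edgeR. At the adjusted threshold 4.79% of all tested genes were called in Dp16 2xIFNRs and 4.23% in Dp16. At an unadjusted p under 0.05 edgeR gave 5 in Dp16 2xIFNRs and 2 in Dp16, against 18.2% and 17.1% of all tested genes. DESeq2 called 1 in Dp16 2xIFNRs and 0 in Dp16, and edgeR called 1 in Dp16 without wild-type replicate 3.

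Proteins that act beside the family on DNA formed a list of 12 partners and coactivators. In each comparison with wild-type 3.17% of all tested genes were called higher. In Dp16 kidneys 1 of the 12 rose, Ikzf1, a zinc finger factor of blood cells (0.56 ± 0.13, edgeR adjusted p = 0.0184). In Dp16 2xIFNRs kidneys 2 rose, Ikzf1 (0.53 ± 0.13, 0.0227) and Spi1, which encodes PU.1 (0.50 ± 0.14, 0.0424). The Dp16 count was 0 without wild-type replicate 4, 2 without Dp16 replicate 5 or wild-type replicate 3, and 3 without wild-type replicate 5. The Dp16 2xIFNRs count was 0 without any 1 of Dp16 2xIFNRs replicates 5 and 6 and wild-type replicates 2 and 4. It was 1 without any 1 of Dp16 2xIFNRs replicates 1, 3 and 4, Dp16 replicate 1 and wild-type replicates 1, 3 and 6. Among 10 brakes on the family and on interferon signalling, Usp18, a protease that removes ISG15 and blocks the type I receptor, rose in Dp16 (0.63 ± 0.14, 0.0168), and 0 were called in Dp16 2xIFNRs, by edgeR at either level of p and by DESeq2. The Usp18 call was lost without Dp16 replicate 3.

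Downstream, 34 genes driven by ISGF3 were followed as a readout of Irf9 and Irf7. In Dp16 kidneys 9 rose and 0 fell, against 3.17% of all tested genes called higher, with a median log2 fold of 0.30 and 32 of 34 folds above 0. Uba7, the enzyme that activates ISG15, rose by 0.64 ± 0.11 (edgeR adjusted p = 0.00168), the secreted glycoprotein gene Lgals3bp by 0.61 ± 0.10 (0.000891) and Bst2, a tether of budding virus, by 0.48 ± 0.11 (0.019). The count was 4 without any 1 of Dp16 replicates 1 and 3 and wild-type replicates 4 and 6. In Dp16 2xIFNRs kidneys 4 rose and 0 fell, against 3.17% of all tested genes called higher. The median was 0.27, again with 32 of 34 folds above 0. Lgals3bp (0.59 ± 0.10), Uba7 (0.51 ± 0.11) and the antiviral gene Trim30a (0.44 ± 0.11) led, and the fourth was Ifit2. That count was 9 without wild-type replicate 5 and 2 without any 1 of Dp16 2xIFNRs replicates 1, 5 and 6 and wild-type replicates 1, 4 and 6.

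Genes driven by Irf1, among them genes of antigen presentation by MHC class I, formed the other target list. In Dp16 kidneys 3.17% of all tested genes were called higher. Of the 25 tested in this list, 4 rose and 0 fell, with a median log2 fold of 0.26. They were B2m, the light chain of MHC class I (0.41 ± 0.08, edgeR adjusted p = 0.00614), H2-D1 (0.34 ± 0.08, 0.0168), H2-K1 (0.31 ± 0.08, 0.0412) and the chemokine gene Cxcl9. H2-D1 and H2-K1 are near-identical to other class I genes, so reads may be split among them. In Dp16 2xIFNRs kidneys edgeR called 0, with a median of 0.23, and DESeq2 called 1. At an unadjusted p under 0.05 edgeR gave 12 of the 25, against 18.2% of all tested genes. The Dp16 count ran from 1 to 7 with single libraries left out: it was 1 without Dp16 replicate 3 or wild-type replicate 4, 2 without Dp16 2xIFNRs replicate 6 or wild-type replicates 2 or 6, and 7 without wild-type replicate 5. Without that last library 3 were called in Dp16 2xIFNRs. In Dp16 2xIFNRs against Dp16 kidneys edgeR and DESeq2 called 0 of the 115 tested genes of these lists that lie off the segment. Of the 115, 9 had an unadjusted edgeR p under 0.05, against 4.71% of all tested genes.

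**Figure D4:**
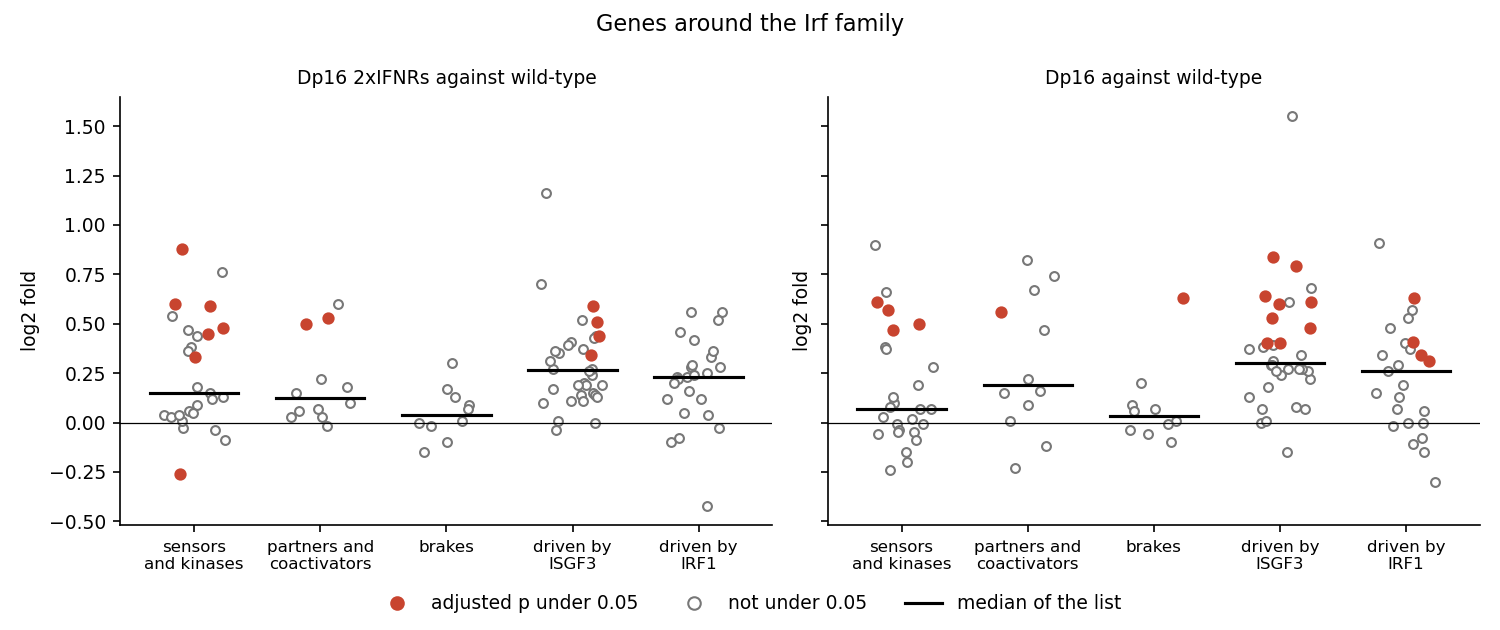
Log2 folds (y axis) of the tested genes in 5 lists around the Irf family in Dp16 2xIFNRs against wild-type and Dp16 against wild-type kidneys; each point is a gene, filled where the adjusted p was under 0.05, and the line is the list's median. The list driven by ISGF3 has its median at 0.27 and 0.30, with 4 and 9 filled points.

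In male against female kidneys 43 of the 115 tested genes of these lists were called (37.4%), a share near the 38.8% of all tested genes. Of the 34 genes driven by ISGF3, 3 were higher and 13 lower in males (median log2 fold -0.24, against -0.03 over all tested genes), and of the 25 driven by Irf1, 0 were higher and 6 lower (24%). Among the brakes 0 were higher and 4 lower, and among the 27 sensors and kinases 4 were higher and 6 lower. On the RPKM scale 12 of the 25 genes driven by Irf1 were called. Calls over all 17575 tested genes were also more on that scale, with 1928 higher and 5883 lower in males on log2(RPKM + 0.1).

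Many macrophage and monocyte markers were higher in the same comparisons with wild-type in which Irf7 was called. Of 20 such markers, 14 rose and 0 fell in Dp16 2xIFNRs kidneys and 12 rose and 0 fell in Dp16 kidneys, with median log2 folds of 0.58 and 0.55. In each comparison 3.17% of all tested genes were called higher. Csf1r and Mertk, with the most counts of the list, were called in neither. They averaged 13.8 and 13.3 RPKM in Dp16 2xIFNRs, 12.7 and 12.1 in Dp16 and 12.8 and 13.5 in wild-type kidneys. The summed level of the 20 was 370 to 456 CPM in Dp16 2xIFNRs, 377 to 440 CPM in Dp16 and 258 to 349 CPM in wild-type kidneys, and none of the 20 was at 0 in any group. The wild-type kidneys all lay below both other groups, and their highest was again replicate 5. Between the sexes the macrophage sum hardly separated, at 258 to 448 CPM in males and 287 to 456 CPM in females. Of the 20 markers 1 was called, lower in males, where 38.8% of all tested genes were called. That count was 0 without any 1 of Dp16 2xIFNRs replicates 2 and 3, Dp16 replicate 3 and wild-type replicates 1 and 6. It was 2 with no filter on low counts, 3 with the replicate number as a block and 4 in either fit on RPKM. The part of these cells in the Irf7 values was not tested.

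**Figure D5:**
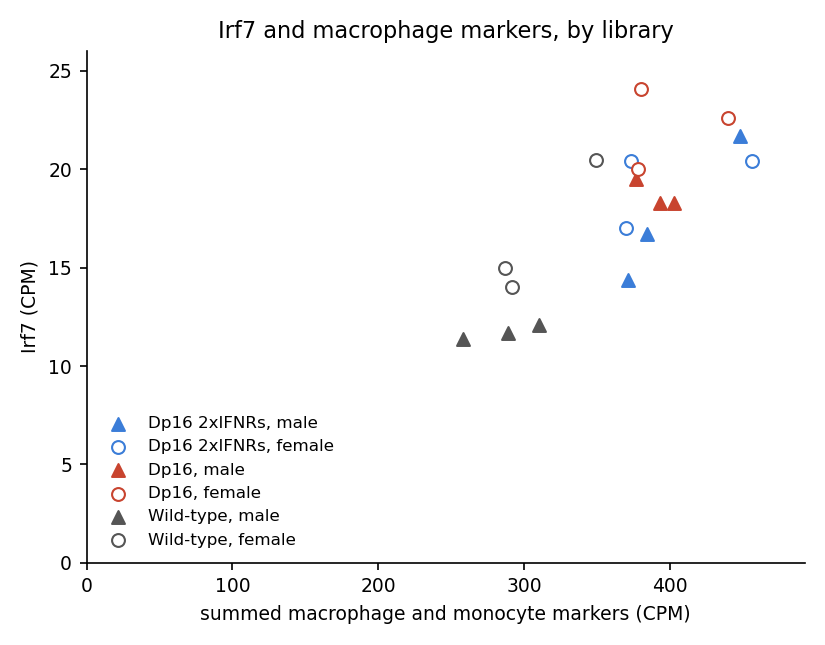
Irf7 (y axis, CPM scaled by TMM) against the summed CPM of 20 macrophage and monocyte markers (x axis) in the 18 kidney libraries; triangles are males, circles females. The wild-type kidneys have sums of 258 to 349 CPM and Irf7 at 11.4 to 20.5 CPM, and wild-type replicate 5 lies nearest to the other genotypes.

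The other cell types in which members are known to act were less clear. In each comparison with wild-type 3.17% of all tested genes were called higher, and in Dp16 17.1% had an unadjusted p under 0.05. Of 9 conventional dendritic cell markers, where Irf8 and Irf4 act, 3 rose in Dp16 2xIFNRs and 0 were called by edgeR in Dp16 kidneys, where 4 had an unadjusted p under 0.05 and DESeq2 called 2. Their sums were 19.3 to 26.4 CPM in Dp16 2xIFNRs, 19 to 28.2 in Dp16 and 16.1 to 22.5 in wild-type kidneys. The Dp16 count was 1 without Dp16 2xIFNRs replicate 3 or wild-type replicate 5, and the count of 3 was 1 without any 1 of Dp16 2xIFNRs replicates 1 and 5 and wild-type replicates 1, 2, 4 and 6. Siglech, a marker of plasmacytoid dendritic cells, which are rich in Irf7, rose in both comparisons, as 1 of 4 tested markers (2 in Dp16 without Dp16 replicate 4). Their sums were 4.87 to 8.67 CPM in Dp16 2xIFNRs, 4.95 to 12.5 in Dp16 and 4.32 to 6.35 in wild-type kidneys. Ly6d and Cox6a2, called in neither comparison, carried most of these counts, with 4007 and 1458 over all libraries. Siglech had 363, so the sums mainly follow those other genes.

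Irf4 is typical of plasma cells and activated T cells. In each comparison with wild-type 3.17% of all tested genes were called higher. Of 7 tested plasma cell markers, 1 rose in Dp16 2xIFNRs and 2 in Dp16 kidneys, and Igkc was called in both. Their sums were 168 to 553 CPM in Dp16 2xIFNRs, 225 to 765 in Dp16 and 98.8 to 164 in wild-type kidneys, with no overlap of wild-type with the others. Igkc, Ighm and Jchain carried most of these counts, with 153100, 51896 and 30210 over all libraries, against 1556 for Prdm1 and 330 for Mzb1. Prdm1 averaged 0.381, 0.24 and 0.31 RPKM in Dp16 2xIFNRs, Dp16 and wild-type kidneys. In the same order Derl3 had 0.99, 0.852 and 0.841, and Mzb1 0.339, 0.587 and 0.271. The Dp16 2xIFNRs count was 2 without any 1 of Dp16 2xIFNRs replicate 2, Dp16 replicates 3 and 4 and wild-type replicate 5, and 0 without wild-type replicate 1 or 4. The Dp16 count was 4 without Dp16 2xIFNRs replicate 1 and 1 without Dp16 replicate 3. Of 10 T cell markers, 2 rose in Dp16 2xIFNRs and 5 in Dp16 kidneys, with sums of 13.1 to 18.6 CPM in Dp16 2xIFNRs, 14.9 to 26.5 in Dp16 and 9.39 to 14.4 in wild-type kidneys. The count of 2 was 1 without Dp16 2xIFNRs replicates 1 or 5 or wild-type replicates 1 or 4. Of 8 tested B cell markers, edgeR and DESeq2 called 0 in either comparison. An unadjusted edgeR p under 0.05 was found for 0 in Dp16 2xIFNRs and 3 in Dp16, against 18.2% and 17.1% of all tested genes. The B cell sums were 4.3 to 7.72 CPM in Dp16 2xIFNRs, 4.06 to 12.6 in Dp16 and 2.41 to 8.5 in wild-type kidneys, and 1 marker was called in Dp16 without wild-type replicate 3. Dp16 replicate 3 had the highest sum of its group for macrophages, both kinds of dendritic cells, B cells, plasma cells and T cells. Irf4 itself was not called in either comparison, and no part of these cells in its values was tested.

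The genes whose pattern was most like each member were taken by the Pearson r of log2 CPM over the 18 libraries, after the mean of each sex was removed. The genotype differences stay in these values, and the libraries share tissue and depth, so r is a description. Among 13846 genes, those nearest to Irf7 were Uba7 (r = 0.90, Spearman rho = 0.86), the MHC class I gene H2-Q4 (0.90, 0.80) and the macrophage gene Mpeg1 (0.89, 0.82). Irf9 was nearest to an immunoglobulin kappa variable segment (r = 0.83), the antiviral gene Oasl1 (0.83) and Tspan13 (0.82). Irf8 was nearest to Rassf5 (0.86), Ptafr, a lipid mediator receptor of myeloid cells (0.85), and Mpdz (0.83). Ptafr also came first for Irf1 (0.85), before Rab8b (0.79) and Gm13652 (0.79).

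The remaining members had neighbours of other kinds. Irf2 was nearest to Ifi203, an interferon-inducible gene (r = 0.87), then Apba1 (0.81) and the endothelial cadherin gene Cdh5 (0.79). Irf3 was nearest to the folate receptor gene Folr1 (0.89), Arf1 (0.88) and Gm42067 (0.88). Irf5 was nearest to Ces2c (0.84), Slc6a9 (0.82) and Ldc1 (0.80), and Irf4 to Cdhr2 (0.80), Kif20b (0.79) and Gm1840 (0.78). H2-Q4 and the immunoglobulin segment have near-identical copies in the genome, which makes their own values uncertain.

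Last, the members were compared with each other among animals of 1 genotype and sex, by removing the mean of each genotype and sex from log2 CPM. Over 28 pairs, r was above 0 in 19 and its median was 0.09. The strongest pair was Irf1 with Irf8, at r = 0.75 (permutation p = 0.056, adjusted p = 0.66 over 28 pairs) and rho = 0.58 (p = 0.07, adjusted p = 0.94). It was 0.40 without the 2 libraries farthest in Irf1, 0.25 in males and 0.90 in females. Irf4 with Irf5 had r = 0.72 (permutation p = 0.013, adjusted p = 0.36) and rho = 0.70 (p = 0.016, adjusted p = 0.46), with 0.59 without the farthest 2. Irf7 with Irf9 had r = 0.33 (permutation p = 0.38, adjusted p = 0.98) and rho = 0.18 (p = 0.57, adjusted p = 0.99). No pair passed the adjustment, by r or by rho. With 1 library left out, 1 pair passed in 3 of 18 cases. Irf4 with Irf8 passed without wild-type replicate 2 (r = -0.64, adjusted p = 0.0193), but had the other sign in all 18 libraries (r = 0.10, permutation p = 0.86). Irf4 with Irf5 passed without wild-type replicate 3 (r = 0.82, 0.0204) or 4 (r = 0.84, 0.0182).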

How the data were processed

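PolyA RNA of 18 mouse kidneys was sequenced. TRIzol was used for extraction, and the strand-specific libraries were read from both ends, per the labels' protocols. HTSeq 0.6.1, HISAT2 2.1.0, SAMtools 1.5, FastQC 0.11.5, bcl2fastq and the build GRCm38 are named in the submitters' processing notes. The authors deposited raw counts per gene. The authors also deposited RPKM, whose gene lengths were equal in all libraries within 0.1% in 17193 of 17193 genes checked and how they were made is not given in the sources used here. TMM factors were 0.9306 to 0.9907 in males and 1.029 to 1.072 in females.

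Counts were fitted with edgeR 4.0.16 in R 4.3.3 (quasi-likelihood, group and sex as terms, all 18 libraries, minimum count 10, minimum total 15), which left 17575 genes. P values are two-sided and adjusted by Benjamini-Hochberg over all of them, with 0.05 as the threshold, named a call. The SE is the fold divided by the square root of F, and is approximate. Lists count genes off the duplicated segment. CPM values use TMM, and log2 CPM a prior count of 2. Correlations used 100000 permutations within genotype and sex (two-sided). Replicate numbers are those of the titles, and whether replicates share a litter is not given in the sources used here. Steps were tested on simulated data.

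The members and lists were chosen with earlier results of these data known. The rule for named genes took all members, the 3 genes of highest r with each, and up to 3 called genes of smallest p per pathway list and genotype comparison. Other called genes were named after their values were seen. Alternatives were RLE size factors, no filter, a stricter filter (average log2 CPM at least 1), no sex term, age as a term, the replicate number as a block, the last number of the description as a random block (limma 3.58.1), DESeq2 1.42.0, the 2 groups alone, limma-trend on log2(RPKM + 0.1) and log2(RPKM + 1), and each library left out. Alternatives of the correlations and of the list counts were chosen after seeing the data. Coordinates came from GENCODE M21 (GRCm38), and promoters from RefSeq GRCm38.p6.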

Additional observations from a re-analysis of the deposited data

Results flagged for a closer look

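Irf4 in Dp16 replicate 2, a female, stood apart from the other 5 Dp16 kidneys, with 0.506 RPKM against 0.319 RPKM in the next. The gap was 0.683 of the group's range, above Dixon's critical value for 6 samples. It was the 1 such case among 24 groups of 6 examined (8 members in 3 genotypes), and chance alone gives about 1 in 20. The value rests on 114 counts. No cause was tested.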

How the results depend on the processing

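Across 32 member folds, 908 values under the alternatives gave 873 on the same side of the threshold, 23 that lost a call, 12 that gained one and 0 that reversed a call. Among the 873 were 11 uncalled folds with another sign. The number of members called in Dp16 against wild-type was 0 without sex as a term and 1 to 2 with 1 library left out. In Dp16 2xIFNRs against wild-type it was 0 without sex, with age, and in the 2 groups alone, and 0 to 1 with 1 library left out. In male against female it ran from 3 to 6 with 1 library left out, 3 of them without wild-type replicate 5. Pairs of correlated members numbered 0 to 1. Over all genes Dp16 gave 744 calls, or 190 without sex, 1236 by DESeq2, 453 in the 2 groups alone and 429 to 815 with 1 library left out. Dp16 2xIFNRs gave 841, or 234 without sex, 1287 by DESeq2 and 526 to 920. On the RPKM scale 83.6% and 76.8% of these calls were higher, against 75% and 66.3%. Without sex as a term the sensors and kinases had 2 calls in Dp16 2xIFNRs and 1 in Dp16, the genes driven by ISGF3 2 and 2, those driven by Irf1 0 and 0, the partners and the brakes 0 and 0, and the T cell markers 0 and 3. In the 2 groups alone Dp16 had 2 calls among the sensors and kinases, 3 for ISGF3, 2 for Irf1 and 0 brakes. Dp16 2xIFNRs had 2 for ISGF3 and 1 partner in such a fit. DESeq2 gave more calls in Dp16 for ISGF3 (13) and Irf1 (8). Same-numbered libraries did not deviate together (18 pairs, r from -0.114 to 0.17), so the numbers were not taken to pair animals. With the number as a replicate block, 1, 1 and 0 members were called in the 3 genotype comparisons, over 910, 945 and 3 genes, and Irf5 lost its call in male against female (adjusted p = 0.456). The cause of these shifts was not tested. Irf4, with 35 to 124 counts, did not pass the stricter filter, so it has no value there.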

Other observations

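Markers of neutrophils, natural killer cells and the kidney epithelium were also read. Of 4 tested neutrophil markers, Csf3r was called higher in both comparisons with wild-type, where 3.17% of all tested genes were called higher in each. Under the stricter filter the neutrophil count was 0 in both. The sums of the 6 markers were 1.57 to 3.79 CPM in Dp16 2xIFNRs and 1.85 to 4.78 CPM in Dp16 kidneys. Wild-type kidneys had 0.866 to 4.53 CPM, the highest of them replicate 3. The neutrophil surface gene Ly6g had only 5 counts over all libraries and did not pass the filter on low counts. It was at 0 in all Dp16 2xIFNRs kidneys, which at this depth shows no difference. Of 2 tested natural killer cell markers 0 were called in either comparison by edgeR or DESeq2, and 0 had an unadjusted edgeR p under 0.05. Over all tested genes edgeR called 4.79% in Dp16 2xIFNRs and 4.23% in Dp16, and 18.2% and 17.1% had such an unadjusted p. The sums of 9 kidney epithelium markers ran from 14241 to 15972 CPM in Dp16 2xIFNRs, 13233 to 14866 CPM in Dp16 and 14013 to 15599 CPM in wild-type kidneys, and their calls between genotypes are not reported here. In male against female kidneys 8 of these 9 were called, 1 higher and 7 lower in males, where 38.8% of all tested genes were called.

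Genes that share exons with a member were not called in the genotype comparisons. Tnpo3, Phrf1, Bcl2l12, Gm17334 and Rnf31 had log2 folds of -0.12, -0.09, -0.21, -0.09 and -0.03 in Dp16 against wild-type kidneys. In male against female kidneys Rnf31, a ubiquitin ligase gene that overlaps Irf9 on the same strand, was lower by edgeR (log2 fold -0.19 ± 0.05, adjusted p = 0.0059), while Tnpo3 had -0.03 ± 0.05.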
